A study of Mus musculus with 90 samples.

Results

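The 10 genes described here belong to the circadian clock of mouse tissues, and were taken by Entrez Gene identifier from the 20414 genes of the deposited expression table: Dbp, Tef, Nr1d1, Nr1d2, Per2, Per3, Ciart, Arntl (also named Bmal1), Npas2 and Nfil3. They were chosen with values of these libraries in view, from FPKM over all libraries and from estrus against diestrus within each tissue, so their levels, their phase differences and their shared pattern are descriptions and carry no test. RNA was sequenced from 15 tissues of female mice (C57BL/6 by the labels, C57BL/6J by the study's methods) in estrus or in diestrus. There were 3 libraries per tissue and phase and 90 in all. By the study's methods the phase was read from stained vaginal secretions followed daily, with serum estrogen and progesterone as a further aid. The mice were 10 weeks old by the labels and slightly younger by the study's methods, had free access to food and water under alternating light and dark, and carried no transgene or treatment named in the sources used here. The tissues were aorta, vein, brown and white adipose tissue (BAT and WAT), heart, skeletal muscle, cerebrum, hypothalamus, kidney, liver, stomach, duodenum, spleen, ovary and uterus. The hour of harvest is not given in the sources used here, and neither is which library came from which mouse, though by the study's methods the 15 tissues were taken from 3 mice per phase.

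The circadian clock is a loop of transcription that runs in nearly all cells. Arntl pairs with Clock or its close relative Npas2, and the pair binds E-box motifs and activates Per and Cry genes, Ciart, Nr1d1, Nr1d2, Dbp and Tef, several of whose products act back on the pair. Nr1d1 and Nr1d2 bind ROR elements and repress Arntl, Npas2 and Nfil3, while Dbp, Tef and Hlf activate, and Nfil3 represses, genes with D-box motifs. In tissues kept on a daily rhythm, the transcripts of the Dbp side of the loop therefore rise when those of the Arntl side fall. Dbp, Tef, Nr1d1, Nr1d2, Per2, Per3 and Ciart are called the Dbp group below, and Arntl, Npas2 and Nfil3 the Arntl group.

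Promoter windows that hold the motifs of this loop are shown for 4 of the genes. The windows come from RefSeq on GRCm38.p6, span 250 bases before to 50 after a start, and were found for 9 of the 10 genes, in 11 windows. No coordinate of the authors' files, which were made on GRCm38.p5, was used. Motif letters were searched on both strands, and capitals mark a match in the strand of the gene. The 3 motifs were the E-box CACGTG, found in 7.15% of all 32851 windows, the D-box TTATGTAA or TTACGTAA, found in 1.06%, and the ROR element TAGGTCA or TGGGTCA, found in 6.45%. No search letters of one motif lie within those of another. Ciart (chr3:95882179-95882478, minus strand) has the E-box 3 times, from -116, -58 and -44 relative to its start. Per3 (chr4:151044616-151044915, minus strand) has the D-box from -205 and -158. Arntl has 2 windows, of which the second (chr7:113207261-113207560, plus strand) has a ROR element from 30, and Nfil3 (chr13:52980990-52981289, minus strand) has it from -12 in the reverse sense. Tef has the E-box once in each of 2 windows, and the windows of Dbp, Nr1d1, Nr1d2 and Npas2 hold none of these letters. A match describes the sequence and is not a bound site.
Ciart: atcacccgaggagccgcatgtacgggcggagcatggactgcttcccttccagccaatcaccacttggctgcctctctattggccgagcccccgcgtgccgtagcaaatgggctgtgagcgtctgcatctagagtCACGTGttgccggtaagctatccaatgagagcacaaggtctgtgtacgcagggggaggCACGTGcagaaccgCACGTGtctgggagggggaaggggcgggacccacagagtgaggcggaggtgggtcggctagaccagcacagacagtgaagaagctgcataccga
Per3: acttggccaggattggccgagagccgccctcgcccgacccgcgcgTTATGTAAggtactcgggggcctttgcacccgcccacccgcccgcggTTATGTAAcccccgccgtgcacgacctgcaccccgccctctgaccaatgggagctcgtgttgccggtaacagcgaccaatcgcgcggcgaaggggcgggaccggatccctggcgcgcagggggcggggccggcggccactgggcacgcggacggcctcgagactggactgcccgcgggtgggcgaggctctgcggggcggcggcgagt
Arntl: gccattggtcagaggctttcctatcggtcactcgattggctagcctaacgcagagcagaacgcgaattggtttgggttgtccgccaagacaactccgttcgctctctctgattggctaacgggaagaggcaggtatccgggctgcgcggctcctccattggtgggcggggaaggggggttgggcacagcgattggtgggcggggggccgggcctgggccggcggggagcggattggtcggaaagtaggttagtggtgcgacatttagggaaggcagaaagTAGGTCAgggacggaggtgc
Nfil3: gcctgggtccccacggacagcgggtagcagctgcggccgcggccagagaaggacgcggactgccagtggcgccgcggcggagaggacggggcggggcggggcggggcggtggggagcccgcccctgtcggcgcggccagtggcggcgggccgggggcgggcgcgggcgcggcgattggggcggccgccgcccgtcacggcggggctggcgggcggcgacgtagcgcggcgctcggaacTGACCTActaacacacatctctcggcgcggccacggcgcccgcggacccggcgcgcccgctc

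Levels are given in FPKM, a measure scaled to transcript length and to the fragments of the library, so that its values allow genes to be compared per length. No read counts are used here. Reads per library, approximated from the steps between values of short genes, had a median of 15.0M over 89 libraries. This is below the number of reads that the study gives as generated per sample. The approximation is rough: BAT diestrus 2 came to 27.8M, against 8.61M to 10.8M in the BAT libraries other than estrus 3. BAT estrus 3 came to 0.0723M and listed 12048 genes at 0, against 2404 to 4820 in the others, so 3 reads on a transcript of 1 kb are already 41.5 FPKM there. Arntl, Npas2 and Nfil3 are listed at 0 in it, and BAT values are given with and without it. Markers of each tissue were present in its own libraries, though they did not set every tissue apart. Those of the uterus ran from 25.9 to 347 FPKM over the uterus libraries and from 28.8 to 35.3 in kidney. Vein libraries also held 744 to 1963 FPKM of white and 439 to 1321 FPKM of brown adipocyte markers. Aortas held 157 to 1824 FPKM of cardiomyocyte markers. Some libraries stood apart in markers of other cells: aorta estrus 1 had a summed smooth muscle level of 10890 FPKM against 1019 to 1660 in the other aortas, and 312 FPKM of brown adipocyte markers against 2492 to 4800. Duodenum estrus 1 had 1089 FPKM of smooth muscle markers against 102 to 316 and 466 FPKM of B cell markers against 22.9 to 90.4, and vein estrus 3 had 173 FPKM of B cell markers against 3.55 to 5.79. Smooth muscle markers summed to 1224 FPKM in WAT estrus 1 against 50.8 to 125 in the other WAT libraries, and to 3051 FPKM in stomach estrus 1 against 139.5 to 1024. Squamous epithelium markers ran from 212 to 7931 FPKM over the stomach libraries, and came to 4518 FPKM in uterus estrus 3 against 0.89 to 161 in the other uteri. Spleen estrus 2 had 4092 FPKM of pancreatic acinar markers against 0.08 to 6.73. The part of these cells in the values of the clock genes was not tested, beyond the libraries left out below. In bulk tissue, fewer cells of a type and less RNA per cell cannot be told apart.

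The activators of the loop were highest in the cerebrum. Arntl, the obligate partner of the activating pair, had a mean of 13.96 ± 2.31 FPKM there (SD, n = 6), then 9.55 ± 2.55 in stomach and 9.32 ± 0.225 in hypothalamus. The lowest Arntl means were 2.03 ± 2.77 in liver, 1.94 ± 1.73 in BAT and 1.17 ± 0.698 in WAT. Without estrus 3, Arntl in BAT was 2.33 ± 1.62 FPKM (n = 5) and lay above liver. Npas2, the relative of Clock that is abundant in the forebrain, had 16.1 ± 1.87 FPKM in cerebrum and 8.93 ± 6.00 in uterus, and 5 tissues were below a mean of 1 FPKM, down to 0.277 ± 0.279 in BAT (0.332 ± 0.273 without estrus 3). In the order of tissues by mean, the ranges of neighbours overlapped for all 14 neighbouring pairs of both genes, so single steps in the order were within the spread of the libraries.

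The Dbp group had another order of tissues. Dbp, a bZIP activator, had its highest mean in WAT at 165 ± 42.6 FPKM and its lowest in duodenum at 19.6 ± 15.7, and Nr1d1, the nuclear receptor REV-ERBα, also had its highest in WAT at 125 ± 34.4. Tef, a relative of Dbp, was highest in cerebrum at 99.3 ± 6.15, and Nr1d2, the second REV-ERB receptor, in skeletal muscle at 35.4 ± 4.86. Per2 and Per3, which code for Period repressor proteins, had highest means of 15.8 ± 7.76 in BAT (16.98 ± 8.07 without estrus 3) and 19.8 ± 5.32 in WAT. The place of BAT among the 15 tissues moved most for Dbp, from rank 3 at 99.2 ± 52.7 FPKM to rank 9 at 83.6 ± 40.4 without that library, and by at most 1 rank for each other gene. Ciart, a repressor of the Arntl pair, had its highest mean of 16.7 ± 15.6 in liver, where the 6 libraries ran from 0.310 to 38.3. Spleen was the lowest tissue for Nr1d1, Nr1d2, Per2 and Per3, and next to lowest for Dbp, Tef and Ciart. Of neighbours in these orders, only spleen with Nr1d1 at 9.45 ± 2.82 and uterus at 21.4 ± 5.90 did not overlap in range. Nfil3, a bZIP repressor, ran from 15.3 ± 4.25 FPKM in skeletal muscle to 2.21 ± 0.256 in spleen, and the spleen libraries lay below all those of hypothalamus, the next tissue.

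The spread between libraries of the same tissue was wide in most tissues and narrow in hypothalamus. Dbp differed 130 times between its highest and lowest liver library and 1.37 times in hypothalamus. Ciart differed 124 times in liver, Arntl 81.2 times in aorta, Npas2 77.8 times in vein and Per3 31.3 times in liver. Hypothalamus had the narrowest range for 8 of the 10 genes, for Arntl 1.07 times. The SD of a gene within its phases, on log2(FPKM + 1), was set against that of all genes tested in the tissue. It was above the 90th percentile for 84 of the 145 pairs of a clock gene and a tissue that could be tested and above the median for 130. The median SD of the clock genes was 0.903 in liver, where that of all genes was 0.132, and 0.138 in hypothalamus, where that of all genes was 0.0796. In ovary the values were 0.211 and 0.183, and in cerebrum 0.227 and 0.124. Within cerebrum, Dbp differed 2.53 times and Ciart 3.73 times, with SDs at the percentiles 97.9 and 98.2 of that tissue.

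**Figure D1:**
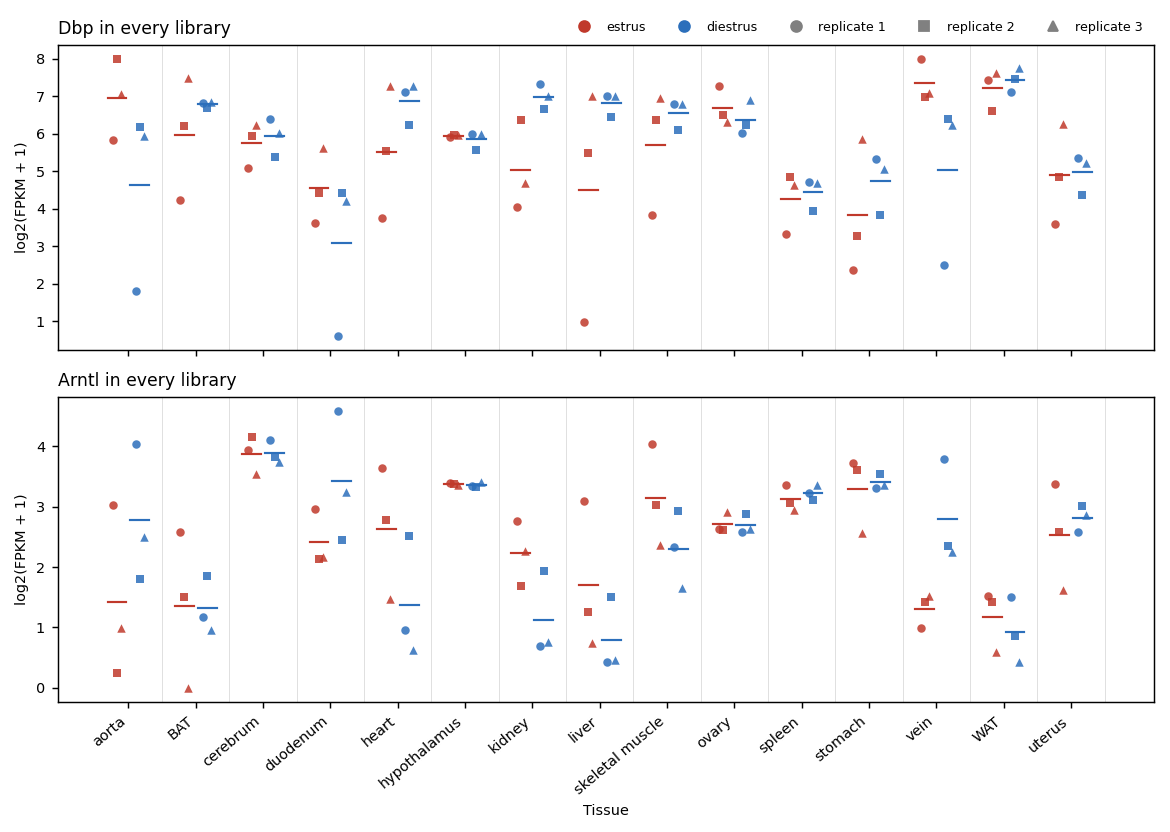
Levels of Dbp (top) and Arntl (bottom) as log2(FPKM + 1) in each of the 90 libraries, by tissue. Colour gives the phase, the symbol the replicate number and the bar the mean of 3 libraries. The 6 hypothalamus libraries of Arntl lie between 8.99 and 9.60 FPKM, while single libraries of liver, aorta, duodenum and vein lie far from the rest of their tissue, in opposite directions for the 2 genes.

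In several tissues a single library stood apart from the rest, with the Dbp group and the Arntl group in opposite directions. In liver, Dbp was 0.980, 44.0 and 127 FPKM in estrus 1, 2 and 3, against 126, 85.2 and 127 FPKM in diestrus 1, 2 and 3. Arntl was 7.55, 1.38 and 0.680 FPKM in the same estrus libraries and 0.340, 1.85 and 0.370 FPKM in diestrus. Estrus 1 of liver was thus the lowest library for Dbp and the highest for Arntl, and estrus 3 lay among the diestrus libraries for both. In vein, Dbp was 252, 125 and 134 FPKM in estrus against 4.60, 82.4 and 73.9 in diestrus. Arntl in vein was 0.990, 1.67 and 1.87 FPKM in estrus against 12.9, 4.10 and 3.76 in diestrus. Here it was diestrus 1 that stood apart, low in Dbp and high in Arntl, and the phases did not overlap for either gene. In duodenum, Dbp was 11.2, 20.5 and 47.7 FPKM in estrus against 0.520, 20.2 and 17.5 in diestrus, and Arntl 23.2 FPKM in diestrus 1 against 3.38 to 8.49 in the other libraries. In aorta, Dbp was 55.6, 254 and 131 FPKM in estrus against 2.51, 70.9 and 60.2 in diestrus, with Arntl at 15.4 FPKM in diestrus 1 and 0.190 in estrus 2. In hypothalamus, by contrast, Dbp was 59.0, 60.8 and 61.0 FPKM in estrus against 62.6, 46.1 and 63.0 in diestrus. Diestrus 2 was the lowest there, but no library lay as far from the rest as in the tissues above.

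The same library was the extreme one for most of the genes in a tissue. All 7 genes of the Dbp group were lowest in diestrus 1 in aorta, duodenum and vein, and in estrus 1 in heart, and 6 of the 7 were lowest in estrus 1 in liver, BAT and skeletal muscle. All 3 genes of the Arntl group were highest in that same library in duodenum, vein, heart, liver, BAT and skeletal muscle. The exception in liver, BAT and skeletal muscle was Nr1d1, which was lowest in diestrus 3, at 31.5, 54.3 and 42.0 FPKM. In ovary, WAT and hypothalamus the extremes of the Dbp group fell in other libraries, diestrus 2 for 4 genes in ovary and estrus 2 for 6 genes in WAT.

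**Figure D2:**
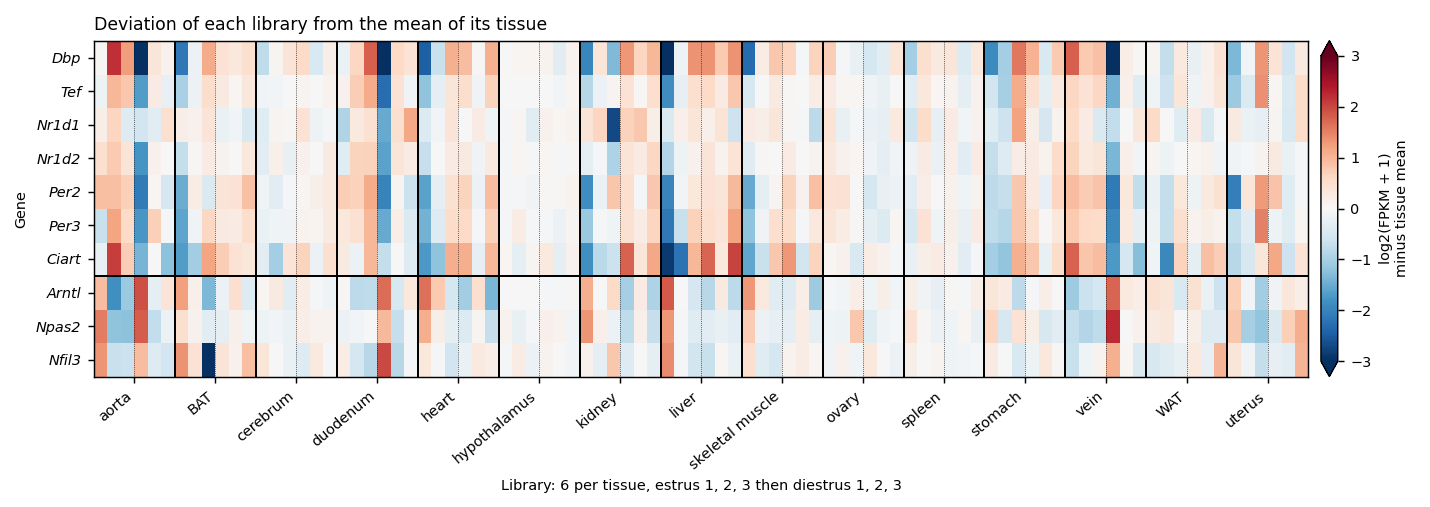
Deviation of each library from the mean of its tissue, in log2(FPKM + 1), for the 10 genes (rows) in the 90 libraries (columns, 6 per tissue with estrus before diestrus, a dotted line between the phases). Red is above and blue below the tissue mean, with the scale ending at 3 in both directions, and the line between Ciart and Arntl separates the Dbp group from the Arntl group. The dark blue and red columns of aorta, duodenum, vein (diestrus 1), liver and heart (estrus 1) run through nearly all genes and change colour at that line.

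The difference between Dbp and Arntl within a library gives both sides of the loop as 1 value. On log2(FPKM + 1), it ranged over 0.41 units among the 6 libraries of hypothalamus, over 1.30 in ovary and 1.54 in cerebrum, and over 8.68 in liver, 8.31 in vein and 9.97 in aorta. It was below 0, with Arntl above Dbp, in liver estrus 1 (-2.11), skeletal muscle estrus 1 (-0.21), vein diestrus 1 (-1.31), aorta diestrus 1 (-2.23), duodenum diestrus 1 (-3.99), and in libraries of stomach and spleen. The lowest of the 6 libraries was estrus 1 in 9 tissues, diestrus 1 in 3 (aorta, duodenum and vein), diestrus 2 in 2 (hypothalamus and ovary) and estrus 2 in WAT. Estrus 1 was below the tissue mean in 13 of 15 tissues, and estrus 3 and diestrus 3 in 2 each. The phases did not overlap in kidney, where estrus was lower, nor in vein, where estrus was higher, and overlapped in the other 13 tissues. Since the tissues came from the same 3 mice per phase, these 15 tissues are not independent, and whether the replicate number marks the mouse is not given in the sources used here. Estrus 1 of stomach, one of the 9 tissues, also stood apart in the markers given above, and their part in its values was not tested.

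**Figure D3:**
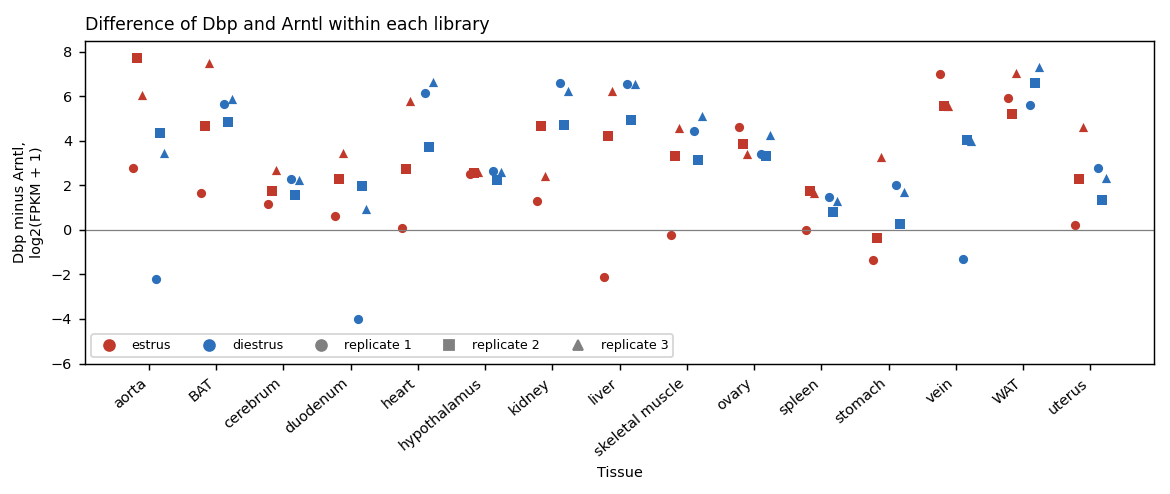
Dbp minus Arntl in log2(FPKM + 1) for each library, by tissue, with colour for the phase and the symbol for the replicate number. The lowest points are estrus 1 (red circles) in 9 tissues and diestrus 1 (blue circles) in aorta, duodenum and vein, and the 6 points of hypothalamus lie within 0.41 units.

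Estrus was then set against diestrus within each tissue, a contrast that the study tested with DEGSeq. Limma was used here instead, so the calls below are not those of the study. Differences are the mean of estrus minus the mean of diestrus on log2(FPKM + 1), positive where estrus is higher, with the standard error of the limma fit to all genes of the tissue and n = 3 against 3. This scale understates the change of low genes. By limma with Benjamini-Hochberg adjustment, 0 of the 145 pairs of a clock gene and a tissue were called at the limits of the study, an absolute log2 difference from 1 upward with an adjusted p up to 0.05, where 0.00108% of all 185469 pairs of a gene and a tissue were called. The 5 pairs under the minimum mean of 1 FPKM were Npas2 in BAT, liver, skeletal muscle, spleen and WAT. Of the 145 pairs, 31 had phases that did not overlap, against 15.0% of all pairs. They were 16 with estrus higher, against 5.66% of all pairs, and 15 with estrus lower, against 9.31%. Since the genes were chosen on this contrast, nothing is read from these counts.

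The vessels and the duodenum had higher Dbp group levels in estrus. All 7 genes had the higher mean in estrus in vein and aorta, and 6 of 7 in duodenum, while the Arntl group was lower in 3 of 3 genes in vein and duodenum. These counts rest in part on diestrus replicate 1: without it Nr1d1 came from 0.26 to -0.04 in vein and from 0.30 to 0.08 in aorta, and in duodenum Npas2 from -0.16 to 0.28 and Nfil3 from -0.75 to 0.05. In vein, 6 genes had estrus wholly above diestrus, against 5.28% of all genes there, and 2 wholly below, against 12.9%. Ciart in vein was 22.4, 11.2 and 12.0 FPKM in estrus against 1.09, 3.74 and 1.81 in diestrus, a difference of 2.35 (SE 0.36). The lowest estrus library of Ciart was well above the highest diestrus library. Dbp differed by 2.31 (SE 1.00) in vein, 2.32 (SE 1.25) in aorta and 1.47 (SE 1.06) in duodenum. Without diestrus replicate 1 these came to 1.04, 0.90 and 0.24, and without estrus replicate 3 the difference in duodenum was 0.94. Per2 was 17.8, 15.8 and 16.96 FPKM in the estrus veins and 1.28, 11.4 and 4.96 in diestrus, a difference of 1.69 (SE 0.54). Per2 in duodenum was 16.4, 15.7 and 21.4 FPKM in estrus against 1.59, 9.87 and 5.64 in diestrus, a difference of 1.71 (SE 0.50), and in aorta the difference was 1.70 (SE 0.54). The phases of Per2 did not overlap in any of these 3 tissues. Nr1d2 in aorta and Per3 in duodenum were the other genes wholly higher in estrus there, so that 2 genes were counted in each tissue, against 2.39% of all genes in aorta and 4.51% in duodenum. Per2, without diestrus replicate 1, differed by 1.05 in vein, 1.13 in duodenum and 1.07 in aorta.

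Arntl and Npas2 were lower in estrus in vein. The Arntl values given above differed by -1.49 (SE 0.41), and by -0.99 without diestrus replicate 1. Npas2 was 0.23, 0.11 and 0.20 FPKM in the estrus veins and 8.56, 1.00 and 1.21 in diestrus, a difference of -1.56 (SE 0.57) and of -0.83 without diestrus replicate 1. In aorta, Npas2 was 8.35 FPKM in estrus 1 and 10.4 in diestrus 1, with 0.370 to 1.83 in the other libraries, so that its phases overlapped. Its difference there was -0.60, and 0.16 without diestrus replicate 1.

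These differences were also read without the libraries that stood apart in markers. Leaving out aorta estrus 1 moved Dbp from 2.32 to 2.88, Per2 from 1.70 to 1.66 and Arntl from -1.35 to -2.15 in aorta (-0.72 when diestrus replicate 1 was dropped, -0.77 when estrus replicate 2 was), and turned Nfil3 from 0.01 to -0.64. Leaving out duodenum estrus 1 moved Dbp from 1.47 to 1.95 and turned Nr1d1 from -0.10 to 0.33, whereas Nr1d1 was -0.87 without diestrus replicate 1. Leaving out vein estrus 3 changed the sign of 0 of the 10 genes in vein, and Nr1d1 there went from 0.26 to 0.54.

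Kidney had the opposite direction. All 7 genes of the Dbp group had the lower mean and all 3 of the Arntl group the higher mean in estrus, and 4 genes had estrus wholly below diestrus, against 3.73% of all kidney genes. Dbp in kidney was 15.6, 81.5 and 24.8 FPKM in estrus against 158, 99.2 and 127 in diestrus, a difference of -1.95 (SE 0.52). Ciart was 1.22, 3.50 and 4.09 FPKM in estrus against 25.9, 9.23 and 16.6 in diestrus, a difference of -2.19 (SE 0.40). Every estrus library of both genes lay below every diestrus library. Arntl was 5.77, 2.2 and 3.79 FPKM in estrus against 0.620, 2.82 and 0.690 in diestrus, and its phases overlapped through diestrus 2. Per2 was 2.46, 9.89 and 21.2 FPKM in estrus against 16.7, 10.9 and 20.8 in diestrus. Its difference of -0.82 (SE 0.59) rested largely on estrus 1. Estrus 3 of kidney had another pattern than the other libraries. It had the lowest Nr1d1 of the tissue at 4.88 FPKM, against 42.3 to 66.2 in the others, and yet the highest Per2 at 21.2 FPKM and the highest Nfil3 at 12.4. The repressor gene Cry1 was also highest there, at 8.93 FPKM against 0.770 to 5.40. Nr1d1 differed by -1.12 (SE 0.79) in kidney with this library and by -0.05 without it, whereas dropping estrus replicate 2 gave -1.72. Nr1d1 overlaps the end of Thra on the other strand, and the counting is not stated to use strand, so reads from the shared stretch cannot be told apart.

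In liver and heart the means of the Dbp group, apart from Nr1d1 in liver, were also lower in estrus, though the phases mostly overlapped. Ciart in liver was 0.310, 1.08 and 18.2 FPKM in estrus against 31.1, 10.9 and 38.3 in diestrus, a difference of -2.72 (SE 1.01), and of -1.97 without estrus replicate 1. The difference of Dbp in liver was -2.32 (SE 1.39), and -0.56 when estrus replicate 1 was dropped, whereas dropping estrus replicate 3 gave -3.57. In heart it was -1.36 (SE 0.76), and dropping the same libraries gave -0.48 and -2.23. Nr1d1 in heart turned from -0.07 to 0.12 without estrus replicate 1. Estrus 3 of both tissues lay at the level of diestrus for these genes. Per2 in liver, at 1.15, 7.01 and 9.66 FPKM in estrus against 10.5, 9.90 and 15.8 in diestrus, was the only one of the 10 genes whose phases did not overlap there (6.84% of all liver genes were wholly lower), with a difference of -1.17 (SE 0.57) and of -0.47 without estrus replicate 1. Arntl in heart differed by 1.27 (SE 0.62), and by 0.76 without estrus replicate 1. In skeletal muscle, Per2 was 0.740, 3.09 and 4.19 FPKM in estrus against 6.88, 4.35 and 8.20 in diestrus, a difference of -1.13 (SE 0.40) that came to -0.66 without estrus replicate 1. Nr1d1 went the other way there, at 87.8, 83.0 and 94.9 FPKM in estrus against 75.2, 71.8 and 42.0 in diestrus, a difference of 0.53 (SE 0.21), and of 0.26 without diestrus replicate 3. These were the 2 genes without overlap in skeletal muscle, where 4.27% of all genes were wholly higher and 21.9% wholly lower in estrus.

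The brain and the ovary had small differences. The spread was little for most genes, but not for Ciart in cerebrum or for Dbp in cerebrum and ovary. In cerebrum all 7 genes of the Dbp group had the lower mean in estrus, at -0.63 for Ciart (-0.28 when estrus replicate 2 was dropped, -0.99 when estrus replicate 3 was) and closer to 0 for the others, of which Dbp turned from -0.18 to 0.15 without estrus replicate 1 and Nr1d1 from -0.15 to 0.03 without diestrus replicate 1. Per2 there was 11.1, 9.32 and 11.7 FPKM in estrus against 12.6, 13.7 and 15.1 in diestrus, a difference of -0.34 (SE 0.11). Per3 was 7.16, 7.51 and 7.74 FPKM in estrus against 9.06, 8.88 and 10.3 in diestrus, a difference of -0.29 (SE 0.08). Npas2 was 14.4, 15.0 and 13.9 FPKM in estrus against 18.5, 17.3 and 17.3 in diestrus, a difference of -0.28 (SE 0.07). These and Tef, at -0.13 (SE 0.06), were the 4 genes whose phases did not overlap in cerebrum, where 2.88% of all genes were wholly lower in estrus. In hypothalamus the differences ran from -0.21 for Nr1d1 to 0.10 for Per3, and from -0.29 to 0.17 with any single library left out, and Nr1d1 and Per2 were wholly lower in estrus, against 9.64% of all genes there. In ovary 6 of the 7 genes of the Dbp group had the higher mean in estrus, and Tef, Nr1d2 and Per2 were wholly higher, against 8.13% of all ovary genes. Nr1d1, one of the 6, turned from 0.10 to -0.09 without estrus replicate 1. Per2 in ovary was 9.98, 10.3 and 7.29 FPKM in estrus against 4.77, 5.99 and 6.26 in diestrus, a difference of 0.60 (SE 0.16).

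In BAT, Per2 was 4.29, 16.3 and 9.98 FPKM in estrus against 18.6, 19.1 and 26.6 in diestrus, a difference of -1.14 (SE 0.44), of -1.21 without the shallow estrus 3 and of -0.68 without estrus replicate 1. Per2 was wholly lower in estrus, against 18.1% of all BAT genes, and Nr1d1 wholly higher, against 12.0%. Without that library Dbp went from -0.82 to -1.57, whereas without estrus replicate 1 it came to 0.05. Leaving out the shallow library moved Ciart from -1.02 to -1.87 and Arntl from 0.03 to 0.71, and turned Nfil3 from -0.94 to 0.43. Without estrus replicate 1, Ciart was -0.44, Arntl -0.58 and Nfil3 -1.85. All values of BAT without estrus replicate 1 keep the shallow estrus 3, where Arntl and Nfil3 are listed at 0. They therefore rest in large part on a library whose zeros say little. Skeletal muscle fibre markers summed to 27.4 to 5200 FPKM over the 6 BAT libraries, and their part in these values was not tested. In stomach, WAT, spleen and uterus no gene tested differed by 1 or more with all libraries. Nfil3 in spleen was the only pair of a gene and one of these tissues without overlap. It differed by 0.17 (SE 0.10), and 0.22 without estrus replicate 2, where 3.09% of all spleen genes were wholly higher. Single libraries weighed on these differences. Dbp in stomach was 4.18, 8.59 and 57.4 FPKM in estrus against 38.8, 13.1 and 32.4 in diestrus, and estrus 3 alone held its difference at -0.90. Without estrus replicate 1, Dbp in uterus turned from -0.08 to 0.58 and Per2 there from -0.28 to 0.68. Without estrus replicate 2, Tef in stomach turned from -0.29 to 0.13 and Dbp in WAT from -0.22 to 0.09.

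**Figure D4:**
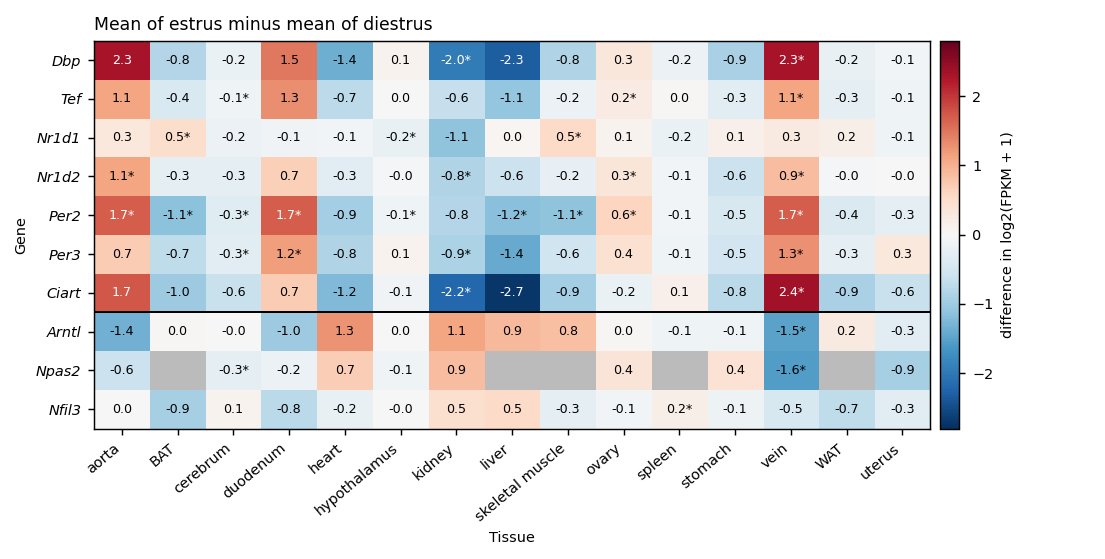
Mean of estrus minus mean of diestrus in log2(FPKM + 1) for the 10 genes in the 15 tissues, printed in each cell. Red is higher and blue lower in estrus, an asterisk marks phases that do not overlap, and grey cells had a mean under 1 FPKM. The Dbp group is higher in estrus in aorta, duodenum and vein and lower in kidney and liver, for Ciart from 2.35 in vein to -2.72 in liver.

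Across the libraries the genes deviated from their tissue mean together. Pearson's r of these deviations was taken over 89 libraries, without BAT estrus 3. It describes libraries that share tissues, phases and mice, and carries no p. The deviations were not scaled by tissue, so tissues and single libraries with a wide spread weigh most in r. Within the Dbp group r ran from 0.10 to 0.93 with a median of 0.80, and was above 0 in all 21 pairs. Dbp had r = 0.93 with Per3 and 0.92 with Tef, and Nr1d1 was the loosest member, with r = 0.45 with Dbp and 0.10 with Per2. Within the Arntl group the 3 values ran from 0.60 to 0.81. Between the groups all 21 were below 0, from -0.88 for Per3 and for Dbp with Arntl to -0.09 for Nr1d1 with Npas2. For estrus minus diestrus, the medians of the 2 groups had opposite signs in 8 of 15 tissues.

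**Figure D5:**
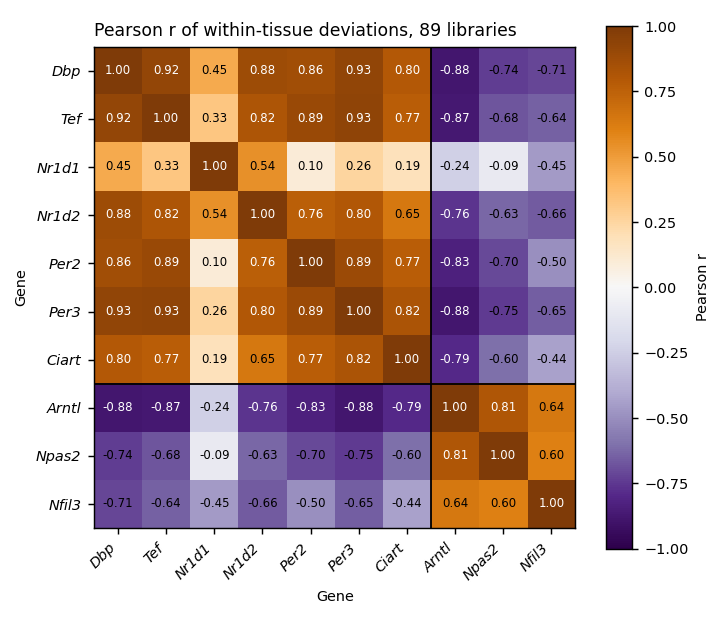
Pearson's r between the 10 genes over 89 libraries, after the mean of the tissue was subtracted from log2(FPKM + 1). Lines separate the Dbp group from the Arntl group. Within the Dbp group r is 0.10 to 0.93, between the groups it is below 0 throughout, and the row of Nr1d1 is the palest.

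The genes most like Dbp were looked for among the 8503 genes whose mean reached 1 FPKM in every tissue. Npas2 did not reach it in every tissue and was left out, though its r was 0.81 with Arntl and -0.74 with Dbp. The 5 highest r were those of Per3, Tef, Nr1d2, Per2 and Ciart, from 0.93 to 0.80, all members of the group. The 99th percentile of these genes was 0.33. Since the members were chosen with these libraries in view, nothing is read from their place above it. The 5 lowest were Arntl, Leo1, Nfil3, Ypel2 and Clpx, at -0.88, -0.73, -0.71, -0.65 and -0.60. Among the same 8503 genes, those most like Arntl were Leo1 at 0.79, Ypel2 at 0.71, Dtx4 at 0.69, Clock at 0.67 and Rnft1 at 0.65. The 99th percentile was 0.46. Leo1 codes for a subunit of the PAF1 complex of transcription elongation, Dtx4 for a Deltex ubiquitin ligase and Clpx for a mitochondrial protease subunit. The lowest for Arntl were Per3, Dbp, Tef, Per2 and Ciart, from -0.88 to -0.79.

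Other genes of the clock pathway, which the choice of the 10 genes did not name, were read from the same fits. Their list was written with earlier results of these data known, and 11 of them had an r with Dbp above 0.2. The shares below are therefore not independent of the pattern described above. They were 25 genes, among them Clock, Per1, Cry1, Cry2, the repressors Bhlhe40 and Bhlhe41, Hlf, the ROR receptors, kinases that act on PER, and rhythmic output genes such as Usp2, Wee1 and Tsc22d3. None of their 335 pairs with a tissue was called by limma with Benjamini-Hochberg adjustment over all genes of the tissue. The smallest adjusted p was 0.112, for Timeless in skeletal muscle, and 50 pairs had an unadjusted p under 0.05, or 14.9%, against 7.84% of all pairs of a gene and a tissue. In vein these were 11 of 22 genes tested, against 12.1% of all genes there, in duodenum 7 of 19 against 13.5%, and in skeletal muscle 7 of 21 against 20.8%. The other tissues ran from 0 of 22 in WAT, against 714 of 11952 genes, to 5 of 21 in liver, against 597 of 10666. Heart had 4 of 22 against 707 of 11592, and hypothalamus 1 of 25 against 1771 of 13400. The phases did not overlap in 27 pairs with estrus higher, or 8.06%, and in 31 with estrus lower, or 9.25%, where 5.66% and 9.31% of all pairs did so. The differences, with 3 against 3, were therefore not shown to exceed the spread of the libraries.

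Per1, a Period gene that also responds to hormones and stress, had the higher mean in estrus in aorta, duodenum and vein, as Per2 did. In aorta it was 29.5, 46.0 and 29.6 FPKM in estrus against 4.59, 13.5 and 6.78 in diestrus, a difference of 2.04 (SE 0.38, limma adjusted p = 0.933). In duodenum Per1 differed by 1.64 (SE 0.41, limma adjusted p = 0.368) and in vein by 1.55 (SE 0.45, limma adjusted p = 0.412). The phases of Per1 did not overlap in these tissues. In a fit of all 90 libraries, which pools the spread over tissues, Per1 was called in all 3, with a limma adjusted p = 0.00069 in aorta, 0.00091 in duodenum and 0.0103 in vein. That fit called 0.813% of all genes in aorta, 4.37% in duodenum and 0.136% in vein. It used 1 SE of 0.36 for Per1 in each tissue and counted libraries of the same mice as independent. Its p-values are therefore not set against the spread within these tissues. Hlf, the third activator related to Dbp, differed by 1.35 in duodenum (SE 0.36, limma adjusted p = 0.368) and by 1.08 in vein (SE 0.28, limma adjusted p = 0.412). Bhlhe41, a repressor of the Arntl pair, was 8.86, 8.96 and 5.93 FPKM in the estrus veins and 2.08, 4.41 and 4.92 in diestrus, and in kidney 0.340, 1.17 and 0.880 against 2.08, 1.83 and 2.02. Its differences were 0.93 in vein and -0.76 in kidney, with limma adjusted p = 0.412 and 1.00. Cry2 differed by 0.85 in duodenum (limma adjusted p = 0.368), and Cry1 by 0.45 there (limma adjusted p = 0.368). Clock, the partner of Arntl, differed by -0.62 in vein (SE 0.18, limma adjusted p = 0.412), where it was 3.21, 4.32 and 4.02 FPKM in estrus against 8.18, 5.74 and 5.53 in diestrus.

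Over the 89 libraries, 13 of the 25 genes had an r with Dbp between -0.2 and 0.2, 11 had a higher r and 1 a lower one. This r of the deviations with Dbp was 0.75 for Per1, 0.72 for Usp2, 0.71 for Hlf, 0.69 for Bhlhe41 and 0.68 for Cry2, and -0.54 for Clock. Cry1, the clock repressor whose transcript is known to peak late in the cycle, had 0.17 with Dbp and -0.32 with Arntl. The kinase genes Csnk1d and Csnk1e lay near 0, at -0.10 and 0.00 with Dbp.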

How the data were processed

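The authors removed low-quality and adaptor reads with SOAPnuke, aligned the rest with Bowtie2 2.2.5 to GRCm38.p5 and estimated abundance with RSEM 1.2.8. They deposited FPKM for 20414 genes in 90 libraries, without counts. The labels gave tissue, phase and replicate number. Symbols were looked up by Entrez identifier in the RefSeq table, which named 20265 genes.

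Genes whose mean over the 6 libraries reached 1 FPKM, 10666 to 13705 per tissue, were fitted as log2(FPKM + 1) in R 4.3.3 by limma 3.58.1, using an intensity trend, no covariate and Benjamini-Hochberg adjustment within the tissue. Calls used the limits of the study, an absolute log2 fold change from 1 upward with an adjusted p up to 0.05. The test itself was not that of the study, which used DEGSeq. Tested on simulated data with 200 genes changed by a log2 of 2, the fit called 34% of them in uterus and a median of 93% over tissues. The changed genes were drawn from all genes tested. Of the clock gene pairs, 84 of 145 had an SD above the 90th percentile, so these shares cannot be taken for them. The p-values measure the spread between 3 and 3 libraries, where an exact permutation test of a single gene cannot go below 0.1.

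The 10 genes and the lists were chosen with earlier results of these data known. Named are these 10, the other clock genes Per1, Cry1, Cry2, Clock, Hlf and Bhlhe41 with any that was called, and the 5 highest and 5 lowest r with Dbp and with Arntl. Usp2, Timeless, Csnk1d and Csnk1e were named after their values were seen, as were those called in a fit of all libraries. An item of the list of other clock genes is not reported here by name. Reads were approximated from 980 short genes of 300 to 1100 bases. Of their values up to 10 reads, 49.3% to 69.0% per library were whole within 0.2 reads, so counts were not recovered and no count test was run. Within groups the highest r between libraries was 0.996, so none was counted as a duplicate. Alternatives were a pseudocount of 0.1, no filter, median-of-ratios scaling, the replicate number as a block, a fit of all 90 libraries and single replicates left out. Python 3.11.15, pandas 2.3.3, numpy 2.4.6 and matplotlib 3.10.9 were used for the rest.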

Additional observations from a re-analysis of the deposited data

Results flagged for a closer look

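For 7 genes of the Dbp group, every estrus library lay above every diestrus library in some tissues and every one lay below in others. The difference between tissues was not tested. Over all pairs of a gene and a tissue, 5.66% were wholly higher and 9.31% wholly lower in estrus, and since the genes were chosen on this contrast nothing is read from the counts. Dbp was wholly higher in estrus in 1 tissue (vein) and wholly lower in 1 (kidney), and so was Ciart. Tef was wholly higher in 2 (ovary and vein) and wholly lower in 1 (cerebrum). Nr1d1 was wholly higher in 2 (BAT and skeletal muscle) and wholly lower in 1 (hypothalamus). Nr1d2 was wholly higher in 3 (aorta, ovary and vein) and wholly lower in 1 (kidney). Per2 was wholly higher in 4 (aorta, duodenum, ovary and vein) and wholly lower in 5 (BAT, cerebrum, hypothalamus, liver and skeletal muscle). Per3 was wholly higher in 2 (duodenum and vein) and wholly lower in 2 (cerebrum and kidney).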

How the results depend on the processing

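Over 15 tissues, 2 genes were called by limma. The count was 1 without the filter, 5 with the replicate number as a block, 3084 in 1 fit of all 90 libraries, and 1 to 99 with 1 replicate left out in every tissue, the highest without estrus replicate 1. Pairs of a clock gene of the 10 and a tissue stayed at 0 called except for 1 in the fit of all libraries (Per2 in duodenum, limma adjusted p = 0.0313), where 1.66% of all pairs were called. Pairs of the other 25 clock genes went from 0 to 10 there: Per1 and Tsc22d3 higher in estrus in aorta, duodenum and vein, Hlf and Noct higher in duodenum, and in uterus Noct lower and Bhlhe40 higher. Pairs without overlap were 31, and 32 to 66 with a replicate left out, since fewer libraries overlap less. Dbp had the higher mean in estrus in 5 tissues and in 4 to 10 with a replicate left out, 10 without estrus replicate 1. For Arntl this was 8 tissues and 5 to 10, with 5 without diestrus replicate 3. For Nfil3 it was 5 tissues and 3 to 9, with 3 without estrus replicate 1 and 9 without estrus replicate 3. The cause was not tested. Of 150 differences, the sign changed in 25 without estrus replicate 1, in 17 without diestrus replicate 1, in 10 to 12 without another replicate, in 4 with the scaling and in 1 with a pseudocount of 0.1.

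The replicate numbers did not pair the libraries: in 0 of 15 tissues did all 3 pairs with the same number have an r of deviations above 0.1, and r ran from -0.52 to 0.44. The block changed no call of the clock genes. The depth of BAT estrus 3 sets a limit of 41.5 FPKM for a transcript of 1 kb, so its listed zeros say little.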
